A study of Homo sapiens with 36 samples.

Results

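The 10 genes described here are early response genes: JUN, JUNB, JUND, FOS and ATF3, which encode AP-1 and ATF transcription factors, IER2, IER3, IER5 and IER5L, which carry the immediate early response name, and TRIB1, a pseudokinase gene. They were chosen by name, each matched 1 row of a table of 60675 genes, and all 10 had enough counts to be tested. RNA had been sequenced from HEK293T, an embryonic kidney cell line of human origin, made to carry YTHDF1-ADAR, YTHDF2-ADAR or YTHDF3-ADAR. From each of these 3 lines there were 3 libraries each of YTHDF1, YTHDF2 and YTHDF3 RNA immunoprecipitation (RIP), made with antibodies to the endogenous proteins, and 3 of input, which is RNA from a part of the lysate. All 36 libraries came from cells given doxycycline at 1 µg/mL for 24 h to switch the fusion on, so no library shows cells without a fusion. Whether an antibody also pulled down the fusion of its own protein was not tested. The libraries of a group are not stated to be separate cultures, and p-values then measure only the spread between these libraries.

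AP-1 is a dimer of a Jun protein with a Fos, Jun or ATF partner that binds DNA and carries growth and stress signals into transcription. Its genes are switched on within minutes of a stimulus, and their messages are short-lived, in part because AU-rich elements in their 3' ends recruit decay factors. YTHDF1, YTHDF2 and YTHDF3 are cytoplasmic proteins that bind N6-methyladenosine in mRNA, and YTHDF2 is best known for speeding decay. ADAR changes adenosine to inosine, so a fusion can leave edited sites on RNAs it meets, a design called TRIBE.

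The promoters are shown because AP-1 and ATF dimers bind such elements and several of these genes are known to respond to their own products. RIP counts do not bear on the promoters. Of the 10 genes, 8 were matched in the RefSeq promoter table (GRCh38.p14), and IER3 and TRIB1 were not searched. The element TGACNTCA, read on both strands, lay in 3 of the 8 (JUN, JUND and ATF3), against 7.72% of 35116 promoters. The shorter TGACG, which overlaps the first element where N is G, lay in 5 of the 8 (JUN, JUNB, JUND, FOS and IER2), against 24.6% of promoters. Windows of 60 bases follow, with the element in capitals, and for FOS also its TATAAA, a word found in 11.5% of promoters. They are chr1:58784070-58784129 on the minus strand (JUN, element 67 bases upstream of the start), chr19:12791334-12791393 on the plus strand (JUNB, 137 bases), chr19:18281778-18281837 on the minus strand (JUND, 200 bases), chr14:75278749-75278808 on the plus strand (FOS, 64 bases) and chr1:212565269-212565328 on the plus strand (ATF3, 123 bases).
JUN: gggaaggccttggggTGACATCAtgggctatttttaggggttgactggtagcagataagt
JUNB: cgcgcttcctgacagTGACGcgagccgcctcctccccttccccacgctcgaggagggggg
JUND: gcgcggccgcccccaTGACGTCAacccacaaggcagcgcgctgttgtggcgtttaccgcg
FOS: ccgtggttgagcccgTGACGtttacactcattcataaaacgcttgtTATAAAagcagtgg
ATF3: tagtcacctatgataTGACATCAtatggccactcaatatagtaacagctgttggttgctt
The windows differ in what surrounds the element, and only the FOS window of these 5 also holds TATAAA. In the whole promoters, read on both strands, TATAAA lay in 3 of the 8 (ATF3, FOS and JUNB). Distances are to the start in the RefSeq table, which for ATF3 lies downstream of the start of the counted gene given below. These matches describe letters, not sites in use.

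Library totals ran from 12.5 to 37.5 M counts (M for 1000000). Apart from the other 30 libraries stood the 6 of YTHDF1 RIP made from the YTHDF2-ADAR and YTHDF3-ADAR lines: they held 12.5 to 16.3 M counts, 54.1 to 74.2% in protein-coding genes (71.5 to 92.4% in the others) and 0.696 to 4.35% in small nucleolar RNAs (0.0360 to 0.564%). Mitochondrial mRNAs made up 3.15 to 8.58% of them and 0.561 to 3.06% of the others. Every statement on YTHDF1 RIP in those lines rests on these 6 libraries, so it cannot be given without them. Of the line's markers LIN28B, PAX2, NEFM and INA, all were present in the 9 inputs, as were HBA1 of the 4 blood markers (2.59 to 8.31 CPM) and COL1A1 of the 4 fibroblast markers (13.8 to 30.2 CPM), against 3.80 to 7.89 CPM for PAX2. The blood markers HBB and PTPRC and the fibroblast marker COL1A2 were at 0 in all 9, and the other blood, fibroblast and hepatocyte markers did not exceed 0.446 CPM. Levels below are counts per 1000000 after TMM scaling (CPM), and fold changes are log2 values ± standard error. A gene is called higher or lower where edgeR's quasi-likelihood test, adjusted over 31849 genes by Benjamini-Hochberg, gave less than 0.05.

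On GRCh38, the build of the deposited counts, JUN (ENSG00000177606) lies on the minus strand at chr1:58776845-58784048, JUNB (ENSG00000171223) on the plus strand at chr19:12791486-12793315 and JUND (ENSG00000130522) on the minus strand at chr19:18279694-18281622. FOS (ENSG00000170345) is at chr14:75278826-75282230 and ATF3 (ENSG00000162772) at chr1:212565334-212620777, both on the plus strand. IER2 (ENSG00000160888) is at chr19:13150411-13154911 and IER5 (ENSG00000162783) at chr1:181088700-181092900 on the plus strand, and IER3 (ENSG00000137331) at chr6:30743199-30744548 and IER5L (ENSG00000188483) at chr9:129175552-129178261 on the minus strand. TRIB1 (ENSG00000173334) is on the plus strand at chr8:125430358-125438403. Counts cover all exons of a gene, untranslated parts included.

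In the inputs the 10 messages spanned a wide range of levels. Per kilobase of exon, JUN was highest with a median of 97.5 CPM per kb (range 77.8 to 124, n = 9), followed by JUND at 46.3 (33.0 to 57.7), IER5 at 26.7 (22.03 to 99.8), IER2 at 19.6 (14.7 to 22.6) and TRIB1 at 17.8 (13.6 to 28.6). Below them came ATF3 at 9.92 CPM per kb (6.40 to 18.4), JUNB at 8.46 (5.57 to 11.4), IER5L at 6.12 (4.78 to 7.15), IER3 at 4.82 (4.27 to 6.32) and FOS at 1.36 (0.531 to 5.07). Of neighbours in this order only JUN and JUND did not overlap in range. Over the 36 libraries FOS had 39 to 663 counts and IER3 35 to 351, the fewest, and JUN 1894 to 36031.

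**Figure D1:**
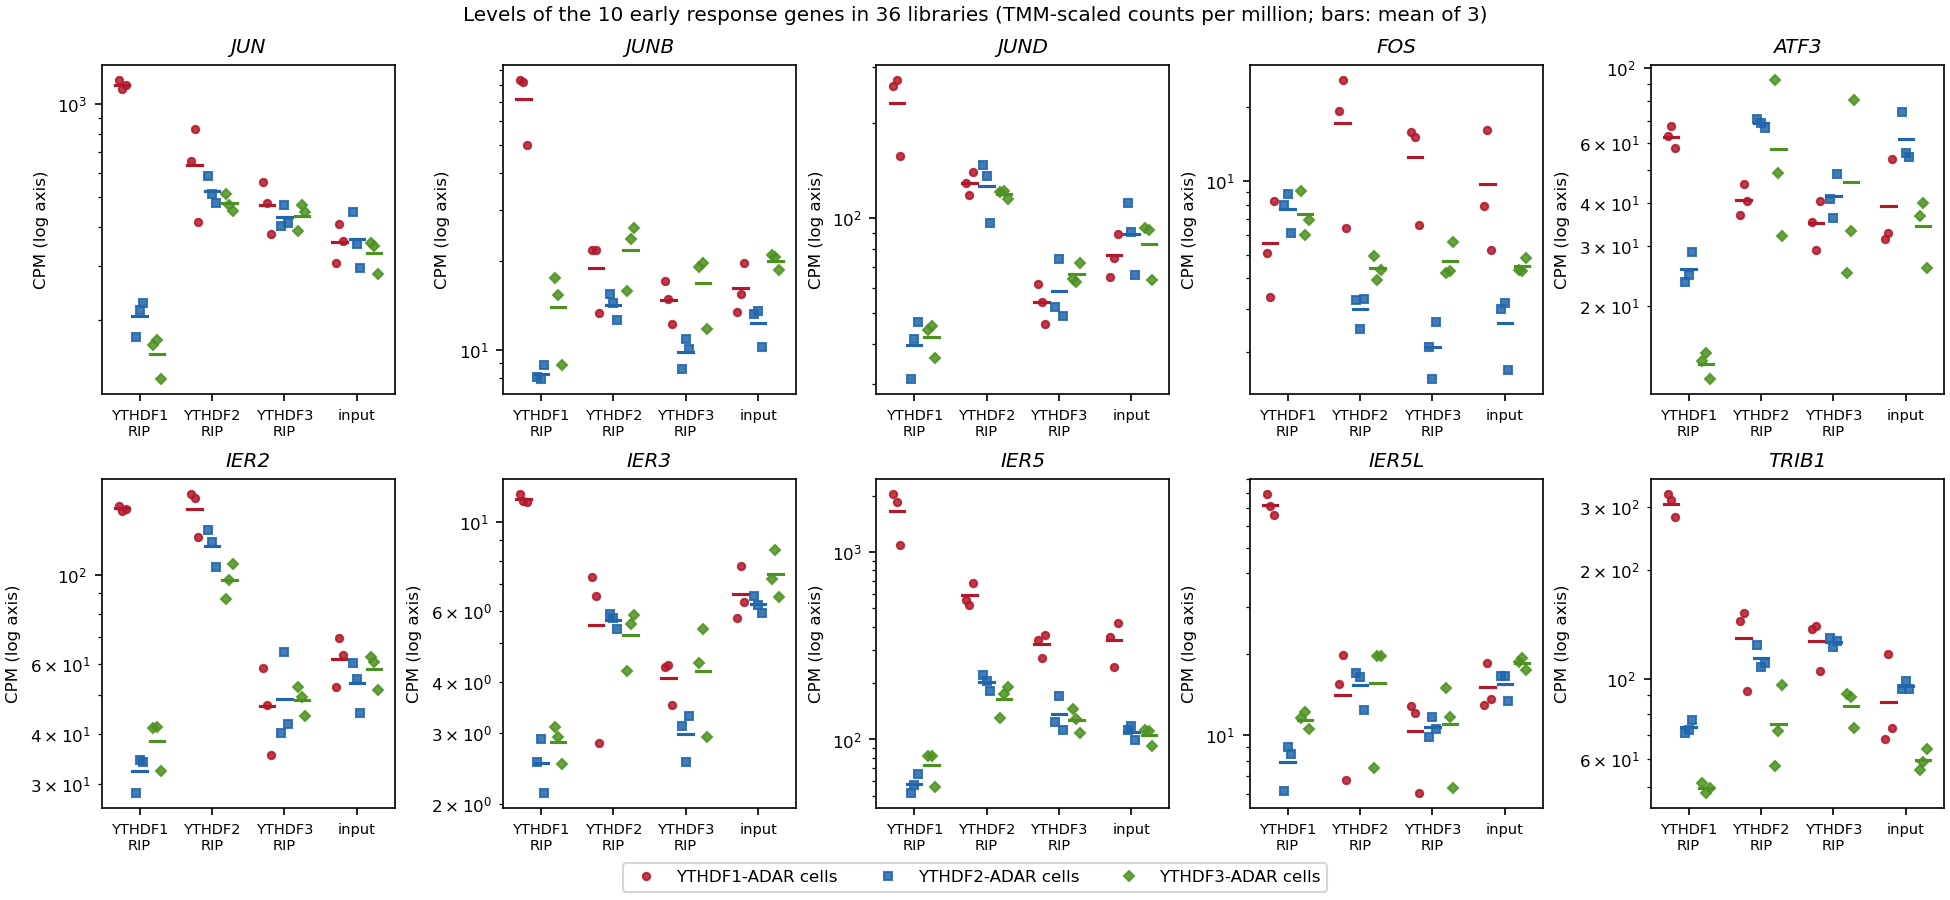
CPM of the 10 genes in each of 36 libraries (log axis, each panel with its own range), with the 3 RIPs left of input and the lines by colour and marker; the short bars are means of 3 libraries. For JUN the YTHDF1 RIP libraries of YTHDF1-ADAR cells lie at 1118 to 1196 CPM and those of the other lines at 129 to 226, on either side of the inputs at 282 to 449.

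YTHDF1 RIP held more of these messages than input in YTHDF1-ADAR cells. There 8 of the 10 were called higher and 0 lower (20.6% of all genes tested were higher, 28.8% lower), with a median log2 fold change of 1.64 against -0.28 over all genes. The same RIP gave the opposite picture in YTHDF2-ADAR cells, where 1 was called higher and 8 lower (41.8% and 33.4% of genes; medians -0.87 and 0.20). In YTHDF3-ADAR cells 0 were called higher and 7 lower (40.8% and 32.4% of genes; medians -0.65 and 0.21). Where edgeR called 0, at an unadjusted p under 0.05 FOS was lower in YTHDF1-ADAR cells (1 member) and 0 were higher in YTHDF3-ADAR cells, and DESeq2 called 0 and 1. The 3 RIPs of a line share its input, so their comparisons are not independent of one another.

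JUN, the founding AP-1 subunit, had 1196, 1118 and 1152 CPM in YTHDF1 RIP of YTHDF1-ADAR cells, against 306, 410.2 and 360.5 in input. All 3 RIP libraries were above all 3 inputs (1.69 ± 0.19, adjusted p = 3.22e-09). In YTHDF2-ADAR cells JUN fell to 176, 216 and 226 CPM in YTHDF1 RIP, against 449, 353 and 295 in input (-0.83 ± 0.19). In YTHDF3-ADAR cells it fell to 166, 172 and 129 CPM, against 356, 348 and 282 (-1.08 ± 0.19). JUNB, a Jun protein that often restrains JUN, had 82.8, 81.9 and 49.6 CPM in YTHDF1 RIP of YTHDF1-ADAR cells, against 13.4, 15.5 and 19.8 in input. It was higher by 2.14 ± 0.23 (adjusted p = 1.34e-09), with replicate 3 the lowest of the RIP libraries. Its falls in YTHDF2-ADAR cells (-0.58 ± 0.24) and YTHDF3-ADAR cells (-0.53 ± 0.23) were not called in every fit. Without RIP replicate 2 in YTHDF2-ADAR cells the value was -0.55 (adjusted p = 0.0748). Without RIP replicate 3 in YTHDF3-ADAR cells it was -0.37 (adjusted p = 0.180). With DESeq2 size factors in edgeR neither fall passed (-0.43 and -0.37, adjusted p = 0.104 and 0.149). JUND, the Jun protein present also in resting cells, had 262, 272 and 157 CPM in YTHDF1 RIP of YTHDF1-ADAR cells, against 65.0, 74.9 and 89.4 in input (1.59 ± 0.21). Its YTHDF1 RIP values fell below input in YTHDF2-ADAR cells (-1.17 ± 0.21) and YTHDF3-ADAR cells (-0.97 ± 0.21) without overlap. JUNB overlaps HOOK2 on the other strand over 259 bases, 14.2% of its exons, and the counts were made without strand, so its values are uncertain.

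FOS, the usual partner of the Jun proteins, stood apart from the other members. In YTHDF1-ADAR cells it had 5.07, 3.37 and 8.31 CPM in YTHDF1 RIP, against 7.94, 16.1 and 5.22 in input, with overlap. Its value of -0.80 ± 0.39 did not pass (adjusted p = 0.0914), and it did without YTHDF1 RIP replicate 3 (-1.18, adjusted p = 0.0330) or without input replicate 3 (-1.05, adjusted p = 0.0396). In YTHDF2-ADAR cells FOS had 7.96, 8.89 and 6.13 CPM in YTHDF1 RIP, against 3.00, 3.17 and 1.69 in input. It was the 1 member called higher there (1.54 ± 0.42, adjusted p = 0.00168), a call lost without input replicate 3 (0.98, adjusted p = 0.0635). In YTHDF3-ADAR cells it had 9.08, 6.05 and 6.92 CPM, against 4.34, 4.28 and 4.87, with no overlap but no call (0.70 ± 0.40, adjusted p = 0.116). ATF3, a stress-induced factor that can repress or activate with Jun partners, had 63.2, 67.3 and 58.1 CPM in YTHDF1 RIP of YTHDF1-ADAR cells, against 31.3, 32.7 and 54.0 in input. The groups did not overlap, yet 0.67 ± 0.31 did not pass (adjusted p = 0.0735), and without input replicate 3, the highest, it did (1.06, adjusted p = 0.0122). ATF3 fell in YTHDF1 RIP of YTHDF2-ADAR cells (-1.27 ± 0.32) and of YTHDF3-ADAR cells (-1.35 ± 0.32), where its 13.8, 14.5 and 12.1 CPM lay below the 36.8, 40.1 and 25.8 of input.

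IER5, a stress-response regulator that acts on the heat shock factor HSF1, stood with IER5L and JUNB at the top of the 10 by fold change. It had 2041, 1849.8 and 1085 CPM in YTHDF1 RIP of YTHDF1-ADAR cells, against 354, 244 and 419 in input (2.29 ± 0.22, adjusted p = 5.62e-11). Replicate 3 of the RIP was lowest and still above every input. In the other lines IER5 fell in YTHDF1 RIP, to 51.7, 56.9 and 65.6 CPM against 112, 117 and 99.3 in YTHDF2-ADAR cells (-0.92 ± 0.21). In YTHDF3-ADAR cells the fall of -0.53 ± 0.21 was not called without RIP replicate 3 (-0.45, adjusted p = 0.0814). Nor was it with DESeq2 size factors in edgeR (-0.37, adjusted p = 0.115). IER5L, its relative by sequence, had 79.2, 71.7 and 66.3 CPM in YTHDF1 RIP of YTHDF1-ADAR cells, against 12.95, 18.5 and 13.5 in input (2.27 ± 0.33). IER2, a nuclear protein of the same family, had 149, 145 and 146 CPM against 52.4, 69.5 and 63.2 (1.25 ± 0.17). IER3, which acts on cell survival and is not related to the others by sequence, had 11.7, 11.2 and 11.2 CPM against 5.77, 7.76 and 6.33 (0.78 ± 0.22, adjusted p = 0.00357). All 4 lay above input without overlap. IER2 and IER3 fell in YTHDF1 RIP of both other lines (IER2 -0.73 ± 0.17 and -0.60 ± 0.17, IER3 -1.31 ± 0.25 and -1.38 ± 0.24 in YTHDF2-ADAR and YTHDF3-ADAR cells). IER5L fell in YTHDF2-ADAR cells (-0.97 ± 0.33) and had -0.70 ± 0.32 in YTHDF3-ADAR cells (adjusted p = 0.0519), a value that passed in 4 of 6 fits that left out 1 library (range -1.07 to -0.73) and with replicate number as a block (-0.71, adjusted p = 0.0363). IER5L lies opposite IER5L-AS1 over 41.8% of its exons. IER2 lies opposite ENSG00000267598 over 30.7% and ENSG00000287296 over 21.5%, and IER3 opposite IER3-AS1 over 26.6% and HCG20 over 6.30%. Over the 36 libraries ENSG00000267598 had 42510 counts and IER2 71215. Part of the counts of IER5L, IER2 and IER3 can belong to the antisense genes, so their values are uncertain as well.

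TRIB1, whose protein brings targets to the ubiquitin ligase COP1, had 325, 313 and 281 CPM in YTHDF1 RIP of YTHDF1-ADAR cells, against 67.8, 117 and 73.0 in input (1.83 ± 0.18, adjusted p = 1.41e-10). In YTHDF2-ADAR cells it had 70.9, 72.2 and 77.0 CPM, against 93.7, 98.7 and 93.4, and -0.38 ± 0.18 did not pass (adjusted p = 0.0541). In YTHDF3-ADAR cells it had 51.5, 48.1 and 49.9 CPM, against 55.7, 58.8 and 64.0 (-0.26 ± 0.18, adjusted p = 0.193). The RIP libraries were below input in both lines. These 2 values passed in 5 of 6 and 4 of 6 fits that left out 1 library, and under scaling by total counts they were above 0 (0.15 and 0.07). Those 6 fits repeated the filter and the TMM scaling, so they changed more than 1 library. In YTHDF3-ADAR cells all 6 values (-0.62 to -0.33) lay further below 0 than the full fit (-0.26). What part the filter and scaling had in these calls was not tested.

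**Figure D2:**
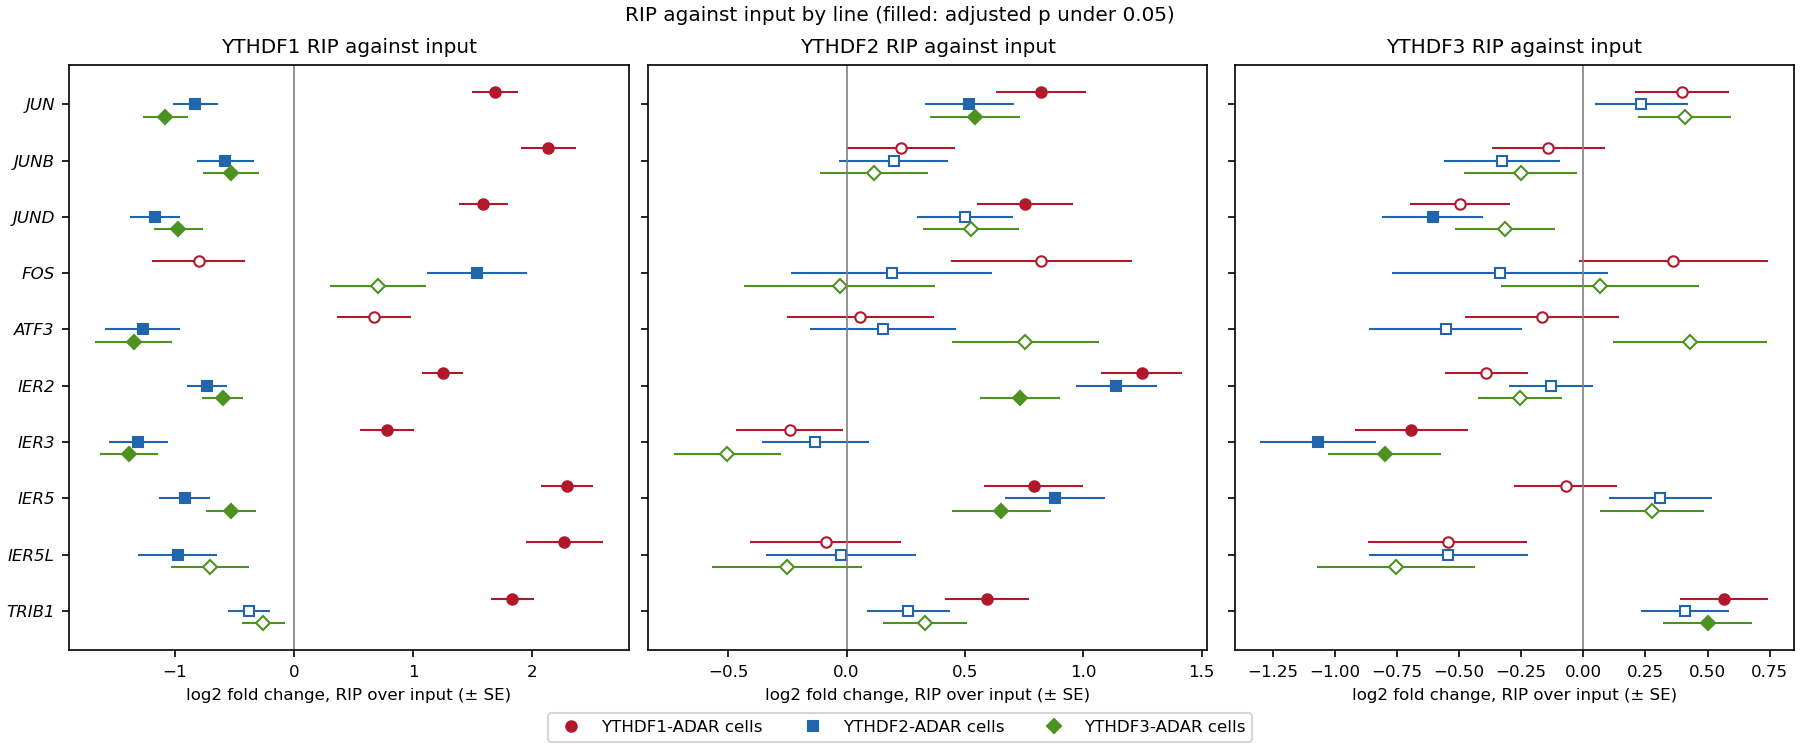
Log2 fold change of each RIP over input (± SE) for the 10 genes in the 3 lines; filled markers passed an adjusted p of 0.05, and the panels have different ranges. By TMM scaling YTHDF1 RIP separates the lines, with 9 of the 10 genes above 0 in YTHDF1-ADAR cells and 9 below 0 in each other line, FOS being the exception each time, while in the YTHDF2 and YTHDF3 RIP panels the lines lie close together.

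The scaling bears on these directions. Scaled to the 13 mitochondrially encoded mRNAs, which made up 1.999 to 3.06% of YTHDF1 RIP counts from the YTHDF1-ADAR line and 0.663 to 2.58% in inputs, the median of all genes moved to -1.43 there, and 3 members (JUNB, IER5 and IER5L) were called higher and 1 (FOS) lower, with IER3 below 0 (1.18% and 47.6% of all genes). In the other lines that scaling called 9 and 9 members lower and 0 higher, and FOS in YTHDF3-ADAR cells was then below 0. Of all genes 38% were lower and 23.7% higher by it in YTHDF2-ADAR cells, and 54% and 11.9% in YTHDF3-ADAR cells. By total counts 9 were higher in YTHDF1-ADAR cells, and 3 and 4 were lower in YTHDF2-ADAR and YTHDF3-ADAR cells. The shares of all genes called by that scaling are not given here, so these counts cannot be set against them. Member medians by it were 1.82, -0.34 and -0.31 in the 3 lines in order, against -0.13, 0.72 and 0.54 over all genes.

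The difference between lines was tested directly, as RIP over input in the line named for the protein minus its mean in the other lines. For YTHDF1 RIP all 10 members passed, 9 higher in YTHDF1-ADAR cells and FOS lower (26.9% and 42.4% of genes tested). The differences ran to 3.11 ± 0.40 for IER5L and 3.01 ± 0.26 for IER5, and FOS had -1.92 ± 0.49 (adjusted p = 0.00101). Summed, and per library total without TMM, the 10 genes made up 2819 to 4424 CPM of YTHDF1 RIP from the YTHDF1-ADAR line. They made up 342 to 613 CPM in the 6 libraries that stood apart. In inputs they made up 852 to 962 CPM in the YTHDF1-ADAR line and 539 to 766 CPM in the other lines. IER5 and JUN were the largest parts of the first range, with TMM-scaled means of 1658 and 1155 CPM. What part the lower depth and higher small nucleolar and mitochondrial shares of the 6 libraries had in the difference between lines was not tested. The lines also differed in YTHDF1 message, called higher in YTHDF1-ADAR inputs by 2.85 over YTHDF2-ADAR and 2.75 over YTHDF3-ADAR inputs. What part that had was not tested either. For YTHDF2 and YTHDF3 RIP 0 members passed and 0 of all genes tested did (0% in each). At an unadjusted p under 0.05 there were 0 and 1 members, and DESeq2 called 0 and 0.

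By TMM scaling YTHDF2 RIP held more JUN, IER2 and IER5 than input in all 3 lines. Scaled to mitochondrial mRNAs, 2 members (JUND and IER2) were called higher in YTHDF1-ADAR cells and 0 in each other line (2.26%, 0.245% and 0.00628% of genes), and with DESeq2 size factors JUN in YTHDF2-ADAR cells was not called (0.47, adjusted p = 0.0605). In YTHDF1-ADAR cells 5 members were higher and 0 lower (8.66% and 15.5% of genes; medians 0.67 and -0.11), in YTHDF2-ADAR cells 3 and 0 (10.2% and 10.1%; 0.23 and 0.02), and in YTHDF3-ADAR cells 3 and 0 (8.98% and 9.93%; 0.43 and 0.00). At an unadjusted p under 0.05, 0, 0 and 1 members (IER3) were lower, and DESeq2 called 0 lower in each line. IER2 led, with 129, 121 and 104 CPM in YTHDF2 RIP of YTHDF2-ADAR cells, against 60.3, 55.1 and 45.3 in input (1.14 ± 0.17, adjusted p = 5.95e-06). In YTHDF1-ADAR cells it had 159, 155 and 125 CPM against 52.4, 69.5 and 63.2 (1.25 ± 0.17). In YTHDF3-ADAR cells it had 87.2, 97.1 and 107 CPM against 62.5, 60.6 and 51.7 (0.73 ± 0.17), a call lost without input replicate 3 (0.61, adjusted p = 0.0527). The IER2 groups did not overlap in any line, but its counts can include reads of the antisense genes named above.

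IER5 had 220.0, 204 and 182 CPM in YTHDF2 RIP of YTHDF2-ADAR cells, against 112, 117 and 99.3 in input (0.88 ± 0.21). It was higher by 0.79 ± 0.21 in YTHDF1-ADAR cells, lost without input replicate 2 (0.60, adjusted p = 0.0538), and by 0.65 ± 0.21 in YTHDF3-ADAR cells, a call kept in 1 of 6 fits that left out a library (lowest 0.52, adjusted p = 0.185). JUN was higher by 0.82 ± 0.19 in YTHDF1-ADAR cells, where every fit that left out a library kept it. Its 0.52 ± 0.19 in YTHDF2-ADAR cells and 0.54 ± 0.19 in YTHDF3-ADAR cells were kept in 2 of 6 and 1 of 6 such fits (lowest 0.32 and 0.40). JUND was called in YTHDF1-ADAR cells (0.75 ± 0.20) and missed the threshold with 0.50 ± 0.20 and 0.53 ± 0.20 in YTHDF2-ADAR and YTHDF3-ADAR cells (adjusted p = 0.0763 and 0.0643). TRIB1 was called in YTHDF1-ADAR cells (0.59 ± 0.18) and kept in 2 of 6 fits that left out a library (lowest 0.42). ATF3 in YTHDF3-ADAR cells spread from 32.0 to 92.1 CPM in YTHDF2 RIP, against 25.8 to 40.1 in input, and 0.76 ± 0.31 did not pass (adjusted p = 0.0922).

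Few of the members were called between YTHDF3 RIP and input, near the shares of all genes given beside each count. In YTHDF1-ADAR cells 1 member was higher and 1 lower (11.5% and 20.1% of genes; medians -0.15 and -0.23), in YTHDF2-ADAR cells 0 and 2 (15.2% and 16.9%; -0.33 and 0.09), and in YTHDF3-ADAR cells 1 and 1 (13.5% and 16.1%; -0.09 and 0.01). In YTHDF2-ADAR cells 1 member (TRIB1) was higher at an unadjusted p under 0.05, and DESeq2 called 0. By TMM scaling IER3 was lower in all 3 lines, calls that scaling to mitochondrial mRNAs ended, with 0 members lower in each line (3.36%, 2.36% and 2.97% of genes). It had 3.12, 2.54 and 3.29 CPM in YTHDF3 RIP of YTHDF2-ADAR cells, against 6.57, 6.23 and 5.94 in input (-1.07 ± 0.23, adjusted p = 4.23e-04). Its falls in YTHDF1-ADAR cells (-0.69 ± 0.23) and YTHDF3-ADAR cells (-0.80 ± 0.23) were kept in 1 of 6 and 5 of 6 fits that left out a library (closest to 0, -0.47 and, without YTHDF3 RIP replicate 3, -0.62). TRIB1 was higher in YTHDF1-ADAR cells (0.57 ± 0.18) and YTHDF3-ADAR cells (0.50 ± 0.18). Without input replicate 1 the value was 0.45 in YTHDF1-ADAR cells (adjusted p = 0.0781), and in YTHDF3-ADAR cells 1 of 6 such fits kept the call (lowest 0.39). In YTHDF2-ADAR cells TRIB1 had 129.8, 122 and 127 CPM, against 93.7, 98.7 and 93.4, with 0.41 ± 0.18 (adjusted p = 0.0750). JUND fell in YTHDF2-ADAR cells (-0.61 ± 0.20), a call kept in 3 of 6 fits that left out a library (closest to 0, -0.49), and scaled to mitochondrial mRNAs its value there was above 0.

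Set against one another, the RIPs differed most between YTHDF1 and the rest. In YTHDF1-ADAR cells YTHDF1 RIP was higher than YTHDF2 RIP for 7 members and lower for FOS (20.3% and 18.8% of genes), and higher than YTHDF3 RIP for 9 and lower for FOS (22.4% and 18.7%). IER5L differed most (2.36 ± 0.33 over YTHDF2 RIP and 2.82 ± 0.33 over YTHDF3 RIP), followed over YTHDF2 RIP by JUNB (1.91 ± 0.23). For IER2 the RIPs of YTHDF1 and YTHDF2 were level, at 147 ± 1.95 and 146 ± 18.9 CPM (SD, n = 3). ATF3 and FOS against YTHDF3 RIP (0.84 ± 0.31 and -1.16 ± 0.39) kept their calls in 0 and 2 of 6 fits that left out a library (closest to 0, 0.72 and -0.96). FOS was high in replicates 1 and 2 of YTHDF2 RIP (19.4 and 25.8 CPM) and YTHDF3 RIP (15.9 and 15.1) of these cells but not in replicate 3 (6.44 and 6.64).

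In the other lines the same comparisons turned round. YTHDF1 RIP was higher than YTHDF2 RIP for 1 member and lower for 9 in YTHDF2-ADAR cells (42.9% and 32.2% of genes) and for 0 and 8 in YTHDF3-ADAR cells (41.5% and 31.3%). Against YTHDF3 RIP the counts were 1 and 6 (42.4% and 30.3%), and 0 and 6 (42.5% and 29.8%). IER2 in YTHDF2-ADAR cells was lower by 1.87 on the log2 scale in YTHDF1 RIP than in YTHDF2 RIP, and ATF3 in YTHDF3-ADAR cells by 2.10. In YTHDF3-ADAR cells edgeR's unadjusted p was under 0.05 for 0 higher members in both comparisons, and DESeq2 called 1 against YTHDF2 RIP and 0 against YTHDF3 RIP. These values again rest on the 6 libraries that stood apart.

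YTHDF2 RIP was higher than YTHDF3 RIP for IER2 and JUND in every line. In YTHDF1-ADAR cells 3 members were higher and 0 lower (10.7% and 8.51% of genes), in YTHDF2-ADAR cells 4 and 0 (12.1% and 8.33%), and in YTHDF3-ADAR cells 2 and 0 (9.01% and 5.74%). In all 3 lines 0 members were lower at an unadjusted p under 0.05 in edgeR or by DESeq2's calls. IER2 differed by 1.64 ± 0.17, 1.27 ± 0.17 and 0.99 ± 0.17 in the YTHDF1-, YTHDF2- and YTHDF3-ADAR lines, with the antisense limit given above. JUND differed by 1.25 ± 0.20, 1.11 ± 0.20 and 0.84 ± 0.20, the last lost without YTHDF2 RIP replicate 2 (0.71, adjusted p = 0.0533). JUND had 129, 118 and 139 CPM in YTHDF2 RIP of YTHDF1-ADAR cells, against 61.8, 54.4 and 46.3 in YTHDF3 RIP. IER5 passed in YTHDF1-ADAR cells (0.86 ± 0.21), lost without YTHDF3 RIP replicate 2 (0.69, adjusted p = 0.0620), and in YTHDF2-ADAR cells (0.57 ± 0.21), where 1 of 6 such fits kept it (lowest 0.41). IER3 passed in YTHDF2-ADAR cells (0.94 ± 0.23).

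**Figure D3:**
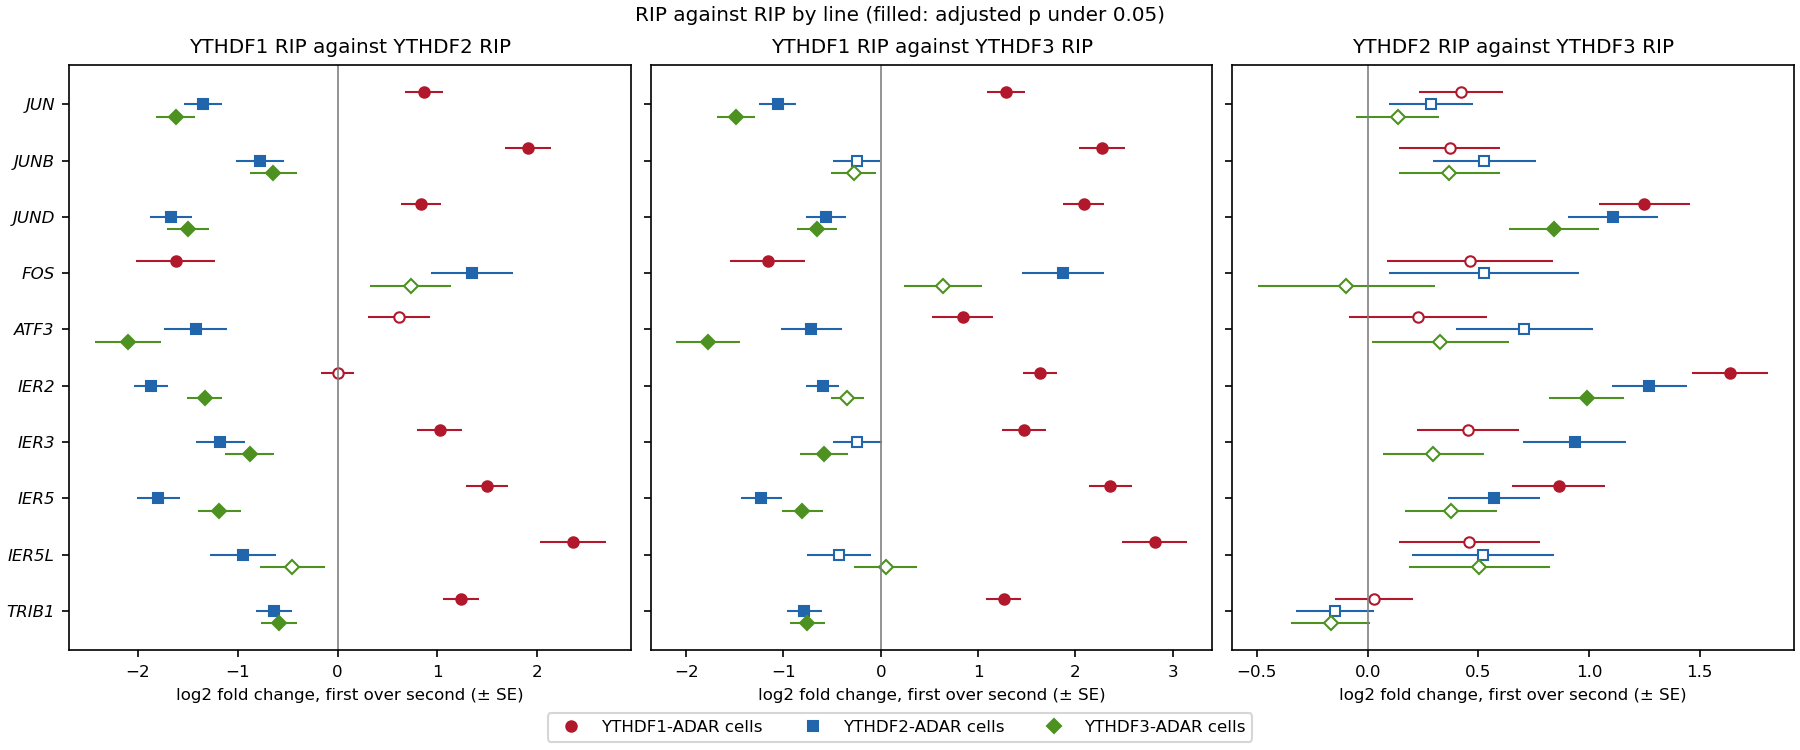
Log2 fold change between RIPs (first over second, ± SE) for the 10 genes in the 3 lines; filled markers passed an adjusted p of 0.05, and the panels have different ranges. IER2 and JUND lie to the right of 0 in every line in the panel of YTHDF2 against YTHDF3 RIP, while both YTHDF1 panels split the lines.

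Between inputs few members differed, and the shares of all genes, given beside the counts below, were small as well. In bulk RNA fewer cells with a message and less of it in each cell cannot be told apart. IER5 was higher in YTHDF1-ADAR cells, with 354, 244 and 419 CPM, against 112, 117 and 99.3 in YTHDF2-ADAR cells (1.63 ± 0.21) and 112, 111 and 92.5 in YTHDF3-ADAR cells (1.69 ± 0.21). FOS was higher in YTHDF1-ADAR than in YTHDF2-ADAR inputs (1.89 ± 0.41), and had 1.12 ± 0.40 against YTHDF3-ADAR inputs (adjusted p = 0.0504), which passed without YTHDF1-ADAR input replicate 3 (1.297, adjusted p = 0.0282). In all, 2 members were higher and 0 lower against YTHDF2-ADAR inputs (13.3% and 4.3% of genes), and 2 and 0 against YTHDF3-ADAR inputs (11.3% and 5.1%), the second being TRIB1 (0.53 ± 0.18, kept in 1 of 6 fits that left out a library, lowest 0.24). Between YTHDF2-ADAR and YTHDF3-ADAR inputs TRIB1 alone passed (0.68 ± 0.18; 1.27% of genes higher, 2.15% lower), and in 0 of 6 such fits (range 0.64 to 0.74). At an unadjusted p under 0.05, 1, 0 and 1 members were lower in these 3 comparisons, and DESeq2 called 0.

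The authors' deposited table gives a fold change for each RIP, with lines not separated by its columns. By the authors' deposited table a single member passed for each RIP, out of 60582 genes of which 20.8% were higher and 16.6% lower for YTHDF1, 6.46% and 6.43% for YTHDF2, and 8.32% and 9.79% for YTHDF3: IER5 for YTHDF1 (1.61, adjusted p = 0.0262), IER2 for YTHDF2 (1.16, adjusted p = 5.25e-04) and IER3 for YTHDF3 (-0.75, adjusted p = 0.0371).

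Editing was listed for 9 of the 10 genes in YTHDF1-ADAR cells, all but FOS. Values are the authors' own, with replicates combined, so they have no error here. A level is the mean over a gene's sites, from the deposited score divided by the number of sites. IER2 had 38 sites at 2.53% in YTHDF1 RIP, 2.30% in YTHDF2 RIP and 2.38% in YTHDF3 RIP, against 1.29% in input. It was the 1 member that passed in the authors' deposited table, for each RIP (adjusted p = 1.55e-04, 0.00932 and 0.0154), where 8.12%, 1.63% and 1.12% of listed genes passed. JUNB had 8.63%, 6.56% and 7.46% over 22 sites, against 6.33% in input, and JUND had 4.34%, 4.54% and 4.48% over 35 sites, against 3.71%. JUN had 2.45%, 1.98% and 2.03% over 9 sites, against 1.77% in input, and TRIB1 2.71%, 2.59% and 2.53% over 35 sites, against 1.98%. IER5 had 4.90%, 5.17% and 3.62% over 24 sites, against 4.16%, and its YTHDF3 RIP level was the one value among these genes below input. IER5L had 5.48%, 6.51% and 5.75% over 19 sites, against 4.14%. ATF3 and IER3 had 3 sites each and levels of 1.26%, 1.24% and 0.747% against 0.227%, and 7.52%, 6.60% and 5.03% against 3.47%. Among all listed genes with values in both, 85.3%, 80.1% and 76.5% were above input in the YTHDF1, YTHDF2 and YTHDF3 RIP.

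**Figure D4:**
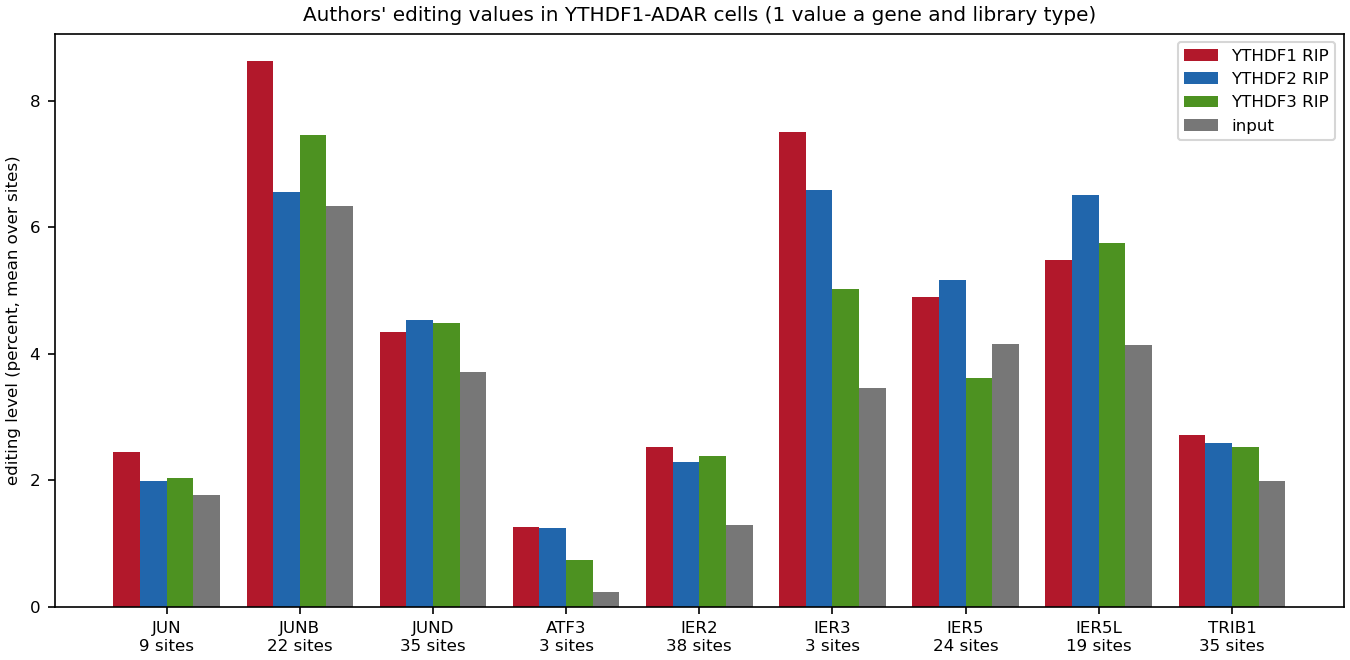
The authors' editing level (percent, mean over a gene's sites) in YTHDF1-ADAR cells for the 9 listed genes, in the 3 RIPs and input; bars start at 0 and have no error. All RIP bars but YTHDF3 RIP of IER5 stand above the input bar, and those of IER2, at 2.30 to 2.53% against 1.29%, rest on the most sites.

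The other lines listed few of the genes. In YTHDF2-ADAR cells JUND had 2 sites at 10.5% in YTHDF1 RIP, 12.5% in YTHDF2 RIP and 12.8% in YTHDF3 RIP, against 12.6% in input, and JUN had 1 site at 1.86%, 1.41% and 0.461%, against 2.56%. In YTHDF3-ADAR cells JUND had 4 sites at 6.34%, 7.70% and 7.42%, against 5.95%, JUN had 2 sites at 1.44%, 0.523% and 0.558%, against 0.633%, and TRIB1 had 1 site listed at 0 in YTHDF1 RIP and input and at 0.526% and 1.01% in YTHDF2 and YTHDF3 RIP. No member passed in the authors' deposited table in these lines, where 0.102 to 2.92% of listed genes did. The tables list 2402 genes for the YTHDF2-ADAR line, 2944 for the YTHDF3-ADAR line and 7829 for the YTHDF1-ADAR line.

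Related genes, taken from lists of other AP-1 family genes, immediate-early genes, kinases that act on AP-1 and proteins that bind AU-rich elements, were read in the same fit. Of all genes tested, as given above, 20.6% were higher and 28.8% lower in YTHDF1 RIP than in input for YTHDF1-ADAR cells, 41.8% and 33.4% for YTHDF2-ADAR cells and 40.8% and 32.4% for YTHDF3-ADAR cells. Of 37 other immediate-early genes tested, YTHDF1 RIP was higher than input for 25 and lower for 0 in YTHDF1-ADAR cells (median 0.73), and higher for 3 and lower for 19 in YTHDF2-ADAR cells (-0.72) and for 2 and 19 in YTHDF3-ADAR cells (-0.55). RHOB, a small GTPase, had 2.03, -1.70 and -1.61 in the YTHDF1-, YTHDF2- and YTHDF3-ADAR lines. MYC, a growth-promoting factor, had 1.12, -1.61 and -1.53, and MCL1, which blocks cell death, 0.73, -0.91 and -1.11, all called. Of 18 other AP-1 family genes, 9 were higher and 3 lower in YTHDF1-ADAR cells (median 0.44), and 3 and 10, and 3 and 9, in the others. ATF4, the factor of the integrated stress response, was lower than input in YTHDF1 RIP of every line (-0.84, -1.98 and -1.85) and in YTHDF2 and YTHDF3 RIP as well (-0.69 to -1.13).

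The kinases and the AU-rich element-binding proteins differed from the immediate-early genes in their counts. Of 14 kinases 4 were higher and 7 lower in YTHDF1 RIP of YTHDF1-ADAR cells (median -0.32), among them MAP2K2 (-1.11) and RPS6KA3 (-0.62). RPS6KA3, a ribosomal S6 kinase, was higher in YTHDF3 RIP of all 3 lines (0.50, 0.59 and 0.73). Of 8 genes for proteins that bind AU-rich elements, 2 were higher and 5 lower (median -0.46), with HNRNPD at -1.62 and ELAVL1, which stabilises such messages, at -0.42. Both lists were mostly lower in YTHDF1 RIP of YTHDF2-ADAR and YTHDF3-ADAR cells, with 11 and 10 kinases and 7 and 7 of the binding proteins called lower. The difference between lists was not tested.

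Across the 12 group means of log2 CPM, 8 of the 10 genes followed the mean of the other members with r of 0.77 to 0.92, ATF3 with 0.59 and FOS with -0.01. These are descriptions over groups that share lines and libraries of unlike depth. Of 9078 genes compared, the profiles most like the members' mean were those of TWNK and MTG2 (r = 0.98 each), ASB6 (0.98), SYS1 (0.97) and CEBPA (0.97). None of these is a member, so a high r is not particular to the members. The share of all genes with such r was not counted.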

How the data were processed

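Per the labels' protocols, RNA was extracted with TRIzol, treated with DNase, depleted of ribosomal RNA and made into libraries with a directional kit. Per the submitters' processing notes and the file headers, reads were aligned with STAR 2.7.7 to GRCh38 and the authors counted them over exons with featureCounts 2.0.1, with no strand option and with reads in several genes or places counted. The values deposited are raw counts per gene, 12.5 to 37.5 M (M for 1000000) per library, whose number sets the precision. The authors' deposited DESeq2 table gives mean normalized counts (a signal), log2 fold changes and adjusted p-values, and its design is not given in the sources used here. The authors' deposited editing tables give, for each gene, a score (the sum of edited fractions over its sites), the natural log of an odds ratio against input and adjusted p-values, with depth unknown. Editing levels here are that score over the site number, as a percent.

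One edgeR 4.0.16 quasi-likelihood model (R 4.3.3, limma 3.58.1) was fitted to the 12 groups of 36 libraries after filterByExpr and TMM scaling, which left 31849 genes. Scaling assumes that most genes do not differ, which a RIP need not meet. There were 24 comparisons, each adjusted by Benjamini-Hochberg over all genes tested. The fit was tested on simulated counts, in which few genes changed and the groups otherwise shared the same composition. That test does not bear on the scaling of these RIPs. The alternatives were other scalings, DESeq2 1.42.0, no filter, a replicate block, fits of fewer libraries and each library left out in turn. Every fit of fewer libraries, those with 1 left out included, repeated the filter and the TMM scaling. Of 21 pairs of groups, 4 had a correlation of deviations over 0.1 for every shared replicate number (YTHDF2 and YTHDF3 RIP of YTHDF1-ADAR cells, YTHDF1 RIP and input and YTHDF2 RIP and input of YTHDF3-ADAR cells, and the inputs of YTHDF2-ADAR and YTHDF3-ADAR cells). 1 row, a rat gene added to the annotation, was left out.

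The genes described and all lists were chosen with earlier results of these data known. Besides the 10 genes, the rule names the 3 genes of each related list with the highest mean input level, and the 5 genes with a mean log2 CPM of at least 4 whose group means correlate best with the members' mean. One item that the rule names is not reported here.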

Additional observations from a re-analysis of the deposited data

Results flagged for a closer look

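For YTHDF1 RIP the difference between RIP and input itself differed between lines for all 10 genes, by edgeR's test of that difference (adjusted p from 5.40e-12 to 0.00101). In YTHDF1-ADAR cells against the mean of the other lines, on the log2 scale, it was 2.64 for JUN, 2.69 for JUNB, 2.66 for JUND, 1.98 for ATF3, 1.91 for IER2, 2.13 for IER3, 3.01 for IER5, 3.11 for IER5L and 2.15 for TRIB1, and -1.92 for FOS. Of all genes tested 26.9% were higher and 42.4% lower by the same test. All 10 values rest on 6 libraries, those of YTHDF1 RIP in the other lines, which stood apart in depth and composition, and the part of that in these values was not tested. The part of the higher YTHDF1 message in YTHDF1-ADAR inputs, given above, was not tested either. Each of the 10 calls held with any 1 library left out.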

How the results depend on the processing

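Of 114 member values past the threshold, 0 changed sign in any alternative other than the scaling to mitochondrial mRNAs. TRIB1 in YTHDF1 RIP against input, not called, turned to 0.15 in YTHDF2-ADAR cells (adjusted p = 0.386) and 0.074 in YTHDF3-ADAR cells (adjusted p = 0.673) by total counts. The counts of members that moved by over 1.5 times follow, and the cause of these moves was not tested. Outside the scaling to mitochondrial mRNAs, the shares of all genes called in each alternative are not given. A fit that calls more genes can call more members, so these counts describe the fits and are not results about the members.

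By total counts, YTHDF1 RIP was lower than input for 3 (YTHDF2-ADAR line) and 4 (YTHDF3-ADAR line) and higher for 1 in YTHDF3-ADAR cells. YTHDF2 RIP was higher for 5 and 6 in YTHDF2-ADAR and YTHDF3-ADAR cells. YTHDF3 RIP was higher for 2, 3 and 2 in the YTHDF1-, YTHDF2- and YTHDF3-ADAR lines and lower for 0 and 1 in YTHDF1-ADAR and YTHDF2-ADAR cells. Scaled to mitochondrial mRNAs, YTHDF1 RIP was higher for 3 in YTHDF1-ADAR and 0 in YTHDF2-ADAR cells, YTHDF2 RIP for 2, 0 and 0, and YTHDF3 RIP for 0, 1 and 0 in the 3 lines in order. It was lower for 1 in YTHDF1 RIP of YTHDF1-ADAR cells and for 0 in YTHDF3 RIP of every line. With DESeq2 size factors, YTHDF1 RIP in YTHDF3-ADAR cells was higher for 1 and YTHDF3 RIP in YTHDF1-ADAR cells for 2. With DESeq2's test these were 1 and 2, and YTHDF3 RIP in YTHDF3-ADAR cells was higher for 2.

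With no filter, YTHDF1 RIP was lower for 1 in YTHDF1-ADAR and higher for 1 in YTHDF3-ADAR cells, YTHDF2 RIP was higher for 5 in YTHDF3-ADAR cells, YTHDF3 RIP was lower for 4 in YTHDF2-ADAR cells and higher for 2 and lower for 2 in YTHDF3-ADAR cells, and 3 differed between YTHDF2-ADAR and YTHDF3-ADAR inputs. With the libraries of the line only, YTHDF1 RIP was higher for 1 in YTHDF3-ADAR cells, YTHDF3 RIP for 0, 1 and 2 in the lines in order and lower for 0 and 4 in YTHDF1-ADAR and YTHDF2-ADAR cells, and 7 differed between YTHDF2 and YTHDF3 RIP in YTHDF2-ADAR cells. Without the 6 libraries that stood apart, YTHDF3 RIP in YTHDF1-ADAR cells was higher for 2 and lower for 0, and 1 differed between YTHDF1-ADAR and YTHDF3-ADAR inputs.

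With 1 library left out, YTHDF1 RIP was lower for 0 to 1 in YTHDF1-ADAR and higher for 0 to 1 in YTHDF2-ADAR cells, and YTHDF2 RIP was higher for 0 to 3 in YTHDF3-ADAR cells. YTHDF3 RIP was higher for 0 to 2 and lower for 0 to 2 in YTHDF1-ADAR cells, lower for 1 to 2 in YTHDF2-ADAR cells, and higher for 0 to 1 and lower for 0 to 2 in YTHDF3-ADAR cells. YTHDF2 and YTHDF3 RIP differed for 2 to 5 in YTHDF1-ADAR and 1 to 3 in YTHDF3-ADAR cells, YTHDF1-ADAR and YTHDF3-ADAR inputs for 1 to 2, and YTHDF2-ADAR and YTHDF3-ADAR inputs for 0 in every fit.

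Over 63 comparisons of libraries by replicate number, 25 correlated best with their own number (r from -0.66 to 0.73). The labels do not say whether a shared number means a shared lysate, and these correlations cannot settle it. With the replicate block, all 33 counts of called members stayed within 1.5 times, with 8 members higher in YTHDF1 RIP than input in YTHDF1-ADAR cells. Single calls moved. FOS and ATF3 between YTHDF1 and YTHDF3 RIP of YTHDF1-ADAR cells no longer passed (-0.93 and 0.86, adjusted p = 0.0575 and 0.0527). Neither did ATF3 between the same RIPs of YTHDF2-ADAR cells (-0.71, adjusted p = 0.0732) or IER5 between YTHDF2 and YTHDF3 RIP there (0.58, adjusted p = 0.0540). All lay outside the 4 pairs of groups with correlations over 0.1. TRIB1 in YTHDF1 RIP of YTHDF2-ADAR cells, likewise outside those pairs, passed (-0.38, adjusted p = 0.0354). IER5L in YTHDF1 RIP of YTHDF3-ADAR cells also passed, and its RIP and input were 1 of the 4 pairs (r from 0.14 to 0.21).

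The share of all genes' calls that were higher moved by over 10 points between scalings. By total counts it was 71.7% and 66.7% (55.6% and 55.7% by TMM) for YTHDF1 RIP in YTHDF2-ADAR and YTHDF3-ADAR cells, and scaled to mitochondrial mRNAs 2.4% (41.7%) for YTHDF1 RIP in YTHDF1-ADAR cells. FOS had the widest standard errors, 0.38 to 0.51, and as few as 39 counts in a library.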
